A study of Mus musculus with 8 samples.

Results

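Polyamine metabolism was followed through 9 genes in RNA-seq of mouse testis. They were taken by symbol from the 23983 genes of the deposited table, where each of the 9 has 1 row. They are the 3 antizyme genes Oaz1, Oaz2 and Oaz3, ornithine decarboxylase (Odc1), antizyme inhibitor 1 (Azin1), S-adenosylmethionine decarboxylase (Amd1), spermidine synthase (Srm), spermine synthase (Sms) and spermidine/spermine N1-acetyltransferase (Sat1). Whole testis of wild-type C57BL/6J mice was sampled on d12, d16 and d24 of postnatal life and at an adult stage whose age in days the labels do not give. Each stage has 1 total RNA library made from a piece of testis, and the labels do not say how many animals went into it. No allele, transgene or treatment distinguishes the stages. A single library per stage leaves no spread between animals and allows no test across stages, so differences are described by their size and by their counting error. In whole tissue, fewer cells of a type and less RNA per cell cannot be told apart.

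Polyamines are small organic cations that bind nucleic acids and support growth and translation. Odc1 makes putrescine from ornithine, Amd1 supplies the aminopropyl donor, Srm turns putrescine into spermidine, and Sms turns spermidine into spermine. Sat1 acetylates spermidine and spermine, which marks them for export or oxidation. Antizymes bind Odc1 protein, and antizyme inhibitors are Odc1 relatives that bind antizyme in place of Odc1. The product of Oaz1 sends Odc1 to the proteasome without ubiquitin and reduces polyamine uptake, which is not claimed here for the product of Oaz3. An antizyme is made only if the ribosome slips by 1 base at a stop codon inside its message, which polyamines promote. Oaz3 is known as the antizyme of haploid germ cells.

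The slippage sites are shown because all 3 antizyme messages carry one, so their mRNA level is not a level of protein. Each window has 30 bases of the spliced reference transcript (RefSeq, GRCm38.p6), 5′ to 3′, and capitals mark the stop codon of the first reading frame, whose first base the annotation skips.
Oaz1: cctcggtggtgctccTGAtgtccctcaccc
Oaz2: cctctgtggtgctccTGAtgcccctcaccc
Oaz3: tgcctccagtgctccTGAgtccctaggagg
The windows lie at chr10:80828280-80828309 (plus strand, Oaz1), chr9:65686257-65686286 (plus strand, Oaz2) and chr3:94436020-94436049 (minus strand, Oaz3), all within coding exons. The Oaz1 and Oaz2 windows share 28 of 30 bases, whereas Oaz3 shares 13 with Oaz1 and 15 with Oaz2. The first frame ends after 68 codons in Oaz1, 32 in Oaz2 and 86 in Oaz3, and the whole product, read through the slip, has 227, 189 and 243 residues. The annotation starts the Oaz3 protein at a CUG codon.

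Values are in FPKM, which counts fragments per transcript length and per library size, with the size as the authors scaled it between libraries. Levels are per transcript length and can be compared between genes, except where reads are shared with near-identical copies. Brackets after an FPKM value give its exact 95% Poisson interval, from the fragments recovered from the value and the transcript length, and brackets after a ratio or share give an exact 95% interval by the Clopper-Pearson method. Both cover counting error only, not the choice between near-identical copies. The libraries held between 8906858 (d12) and 23683538 (d24) recovered fragments. In 1 kb of transcript, 1 fragment stood at 0.112 FPKM in the adult, with 12045233 fragments, and at 0.0799 at d12. The scaling therefore does not follow the fragment count of each library alone. The marker lists broadly followed the first wave of spermatogenesis, although the elongating spermatid sum was lower at d16 than at d12. The 6 pachytene spermatocyte markers summed to 59.6 FPKM at d12 and 978 at d16, and the 6 round spermatid markers to 34.5 at d16 and 552 at d24. The 6 elongating spermatid markers summed to 13.2 at d12, then 4.45 at d16, 2363 at d24 and 26392 in the adult. Over the same ages the 6 spermatogonial markers went from 289 FPKM at d12 to 62.1 in adult testis and the 6 Sertoli cell markers from 878 to 516, with Amh listed at 0 in adult testis. The 6 Leydig cell markers summed to 132 FPKM at d12, then 82.4 at d16, 153 at d24 and 581 in the adult. The part of these cell types in the results on single genes was not tested.

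**Figure D1:**
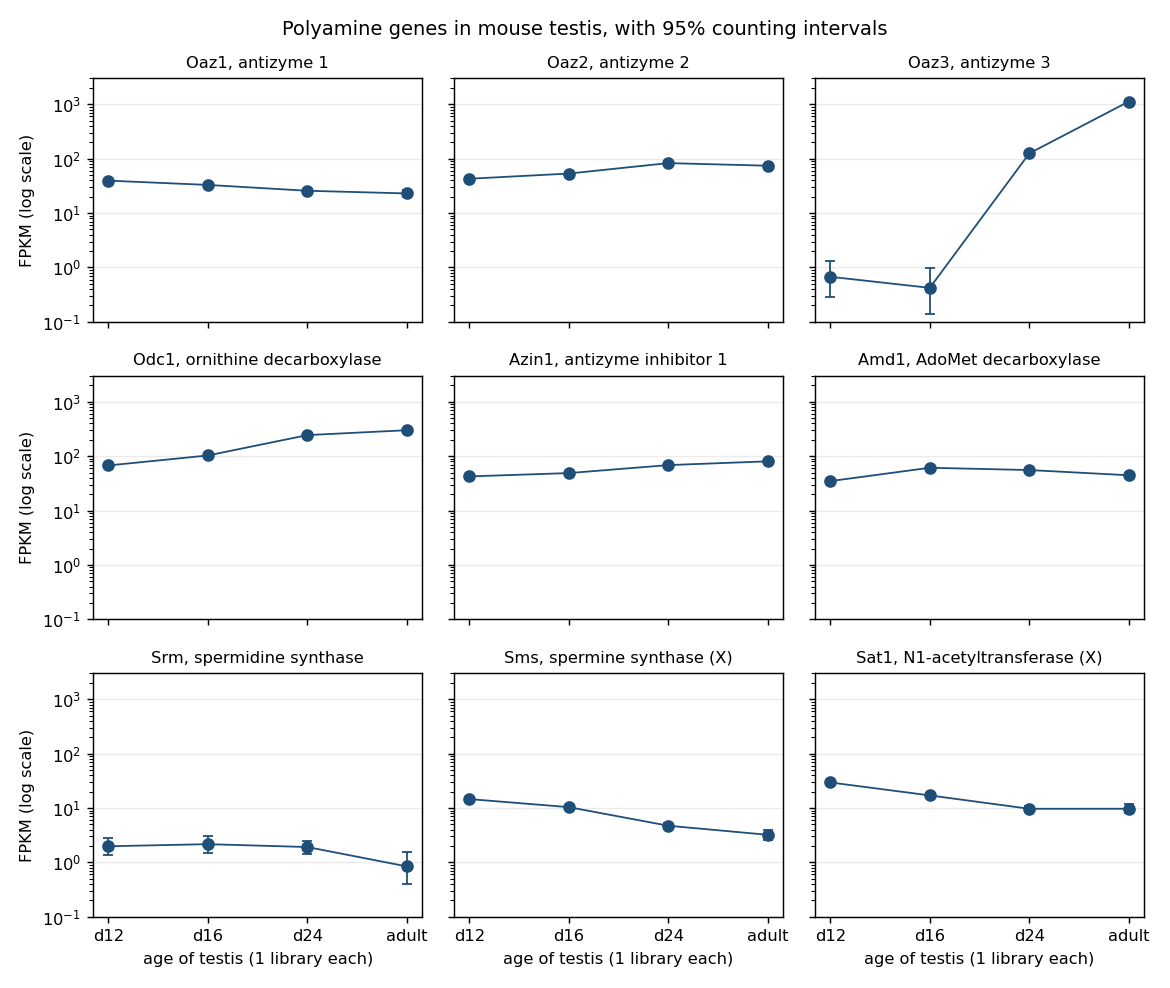
FPKM (log scale) of the 9 polyamine genes at d12, d16, d24 and in adult testis, 1 library each; bars are 95% counting intervals and the lines only join the stages. Oaz3 goes from under 1 FPKM at d12 and d16 to 126 at d24 and 1129 in the adult, while the other 8 genes stay within a 5-fold range.

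Among the antizymes, Oaz3 was under 1 FPKM before d24 and was the most abundant of the 9 genes in adult testis. Oaz3 (chromosome 3, 94433387 to 94436651, minus strand, 5 exons) had 0.673 FPKM at d12 (8 fragments, 0.290 to 1.33), then 0.421 at d16 (5 fragments, 0.137 to 0.983), but 126 at d24 (2620 fragments, 121 to 130) and 1129 in the adult (9555 fragments, 1106 to 1152). The early levels are low and their intervals overlap, and the d24 and adult levels lie far above them and apart from each other. From d16 to d24 Oaz3 was 298 times higher (128 to 919), and from d24 to the adult stage 8.99 times higher (8.61 to 9.39). In adult testis Oaz3 ranked 43 from the highest of all genes in the table. No 50-base stretch of the Oaz3 transcript occurs elsewhere in the genome.

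The early fragments of Oaz3 amount to 0.0596% of its adult level at d12 and 0.0373% at d16. The 6 elongating spermatid markers lay at 0.0419% to 0.0678% of their adult levels at d12 and at 0.00364% to 0.0216% at d16, also with the lower values at d16. Oaz3 was inside their range at d12 and above it at d16, where it rests on 5 fragments. The 6 round spermatid markers lay at 0.0235% to 4.30% at d12 and at 0% to 15.8% at d16, ranges that also hold Oaz3. At d24, Oaz3 had 11.1% of its adult level. That is inside the range of the elongating spermatid markers (5.72% to 17.6%) and below that of the round spermatid markers (19.6% to 78.2%).

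The other antizymes are broadly expressed genes and were present at every stage. Oaz1 (chromosome 10, 80826656 to 80829290, plus strand) had 39.5 FPKM at d12 (36.2 to 43.0), then 33.0 at d16 (30.0 to 36.2), 25.7 at d24 (23.7 to 27.9) and 23.0 in the adult (20.1 to 26.3). Each Oaz1 value is lower than the one before it, with overlapping intervals between d12 and d16 and between d24 and adult testis. Oaz2 (chromosome 9, 65676548 to 65690300, plus strand) had 42.8 FPKM at d12 (40.2 to 45.6), then 53.4 at d16 (50.4 to 56.5), 83.1 at d24 (80.3 to 85.9) and 74.4 in the adult (70.3 to 78.7). Oaz2 was thus highest at d24. For both genes the assignment of reads is uncertain, because 87.0% of the 50-base stretches of the Oaz1 transcript and 60.4% of those of Oaz2 occur elsewhere in the genome. A copy at Oaz1-ps on chromosome 17 covers 96.9% of Oaz1 at 99.8% identity, and one at Oaz2-ps on chromosome 3 covers 98.3% of Oaz2 at 98.0%. Oaz1-ps has its own row in the table, with 0.837 FPKM at d24, 0.808 in adult testis and values near 0 before.

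Within a library the share of each antizyme does not depend on how libraries were scaled. It does depend on how reads shared with copies were assigned, which the intervals leave out. Of the 50-base stretches, 87.0% in Oaz1 and 60.4% in Oaz2 occur elsewhere, against 0% in Oaz3. Oaz3 made up 0.811% of the summed antizyme FPKM at d12 (0.351% to 1.59%), then 0.486% at d16 (0.158% to 1.13%), 53.6% at d24 (52.3% to 54.8%) and 92.1% in the adult (91.6% to 92.5%). Oaz1 held 47.6% at d12, then 38.0% at d16, 10.98% at d24 and 1.87% in the adult. Oaz2 had the largest share at d12 with 51.6% and at d16 with 61.5%. The summed antizyme level was 83.0 FPKM at d12, then 86.8 at d16, 234 at d24 and 1226 in the adult.

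Against their binding partners Odc1 and Azin1, the summed antizymes had an FPKM ratio of 0.754 at d12 (0.711 to 0.798), then 0.570 at d16 (0.540 to 0.602), 0.748 at d24 (0.727 to 0.769) and 3.21 in the adult (3.13 to 3.30). The ratio is lowest at d16, and the intervals of d12 and d24 overlap. These intervals also leave out the assignment of reads to copies, and 55.1% of the 50-base stretches of Odc1 occur elsewhere, against 0% of those of Azin1. Without Oaz3 the ratio was lower at each successive stage, from 0.748 at d12 to 0.567, 0.347 and 0.255. Oaz3 alone had 0.513 times the FPKM of Odc1 at d24 and 3.75 times in adult testis.

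**Figure D2:**
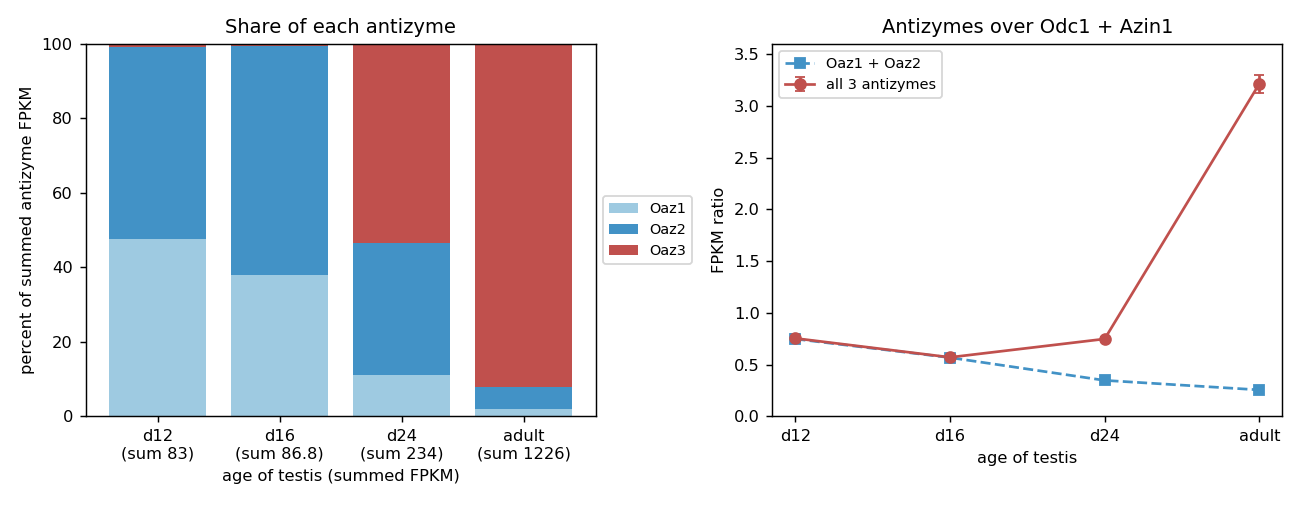
Left, percent of the summed antizyme FPKM held by Oaz1, Oaz2 and Oaz3 in each library, with the sum under each stage. Right, summed antizyme FPKM over summed Odc1 and Azin1 FPKM with 95% counting intervals, and the same ratio for Oaz1 and Oaz2 only: the curves separate at d24 (0.748 against 0.347) and in adult testis (3.21 against 0.255).

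Of the binding partners of the antizymes, Odc1 was higher in adult testis than at d12 under all 3 scalings of the libraries, and Azin1 only as deposited and by the upper quartile (0.815 times with the same FPKM sum). Odc1, the rate-limiting enzyme of putrescine synthesis (chromosome 12, 17544808 to 17551502, plus strand, 12 exons), had 67.6 FPKM at d12 (64.8 to 70.5), then 103 at d16 (99.7 to 107), 245 at d24 (241 to 249) and 301 in the adult (294 to 308). It was the highest of the 9 genes at d12, d16 and d24, and stood behind Oaz3 in adult testis. The ratio between neighbouring stages was 1.53 (1.45 to 1.61) from d12 to d16, 2.37 (2.28 to 2.46) from d16 to d24 and 1.23 (1.19 to 1.27) from d24 to adult testis. Odc1 has many processed copies, and 55.1% of its 50-base stretches occur elsewhere, among others in a copy on the X chromosome that covers 96.1% of it at 96.1% identity.

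Azin1 (chromosome 15, 38487430 to 38519294, minus strand) had 42.5 FPKM at d12 (40.9 to 44.2), then 49.0 at d16 (47.2 to 50.7), 68.7 at d24 (67.1 to 70.2) and 80.5 in the adult (77.9 to 83.3). Its successive values are higher and their intervals stand apart, but it gained less than Odc1, so the Azin1 to Odc1 ratio went from 0.629 at d12 to 0.474, 0.281 and 0.268. No 50-base stretch of Azin1 occurs elsewhere. Of all pairs among the 9 genes, Oaz2 and Azin1 had the most similar profiles over the 4 libraries (root mean square difference 0.14 on the centred log2 scale).

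Azin2, the other antizyme inhibitor, is not one of the 9 genes but binds the same antizymes. Azin2 had 0.858 FPKM at d12 (0.545 to 1.32), then 0.777 at d16 (0.484 to 1.22), 3.45 at d24 (2.92 to 4.04) and 37.6 in the adult (34.8 to 40.6). From d24 to adult testis it was 10.9 times higher (9.14 to 13.1), beside 8.99 times for Oaz3. Its FPKM stood at 0.0502 of that of Azin1 at d24 and at 0.467 in adult testis. With Azin2 added to the partners, the antizyme ratio in adult testis was 2.93.

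After d16 the enzymes that build spermidine and spermine did not follow Odc1 as deposited. Between d12 and d16 Amd1 was 1.76 times higher and Odc1 1.53 times, whereas Sms stood at 0.711 of its d12 level. Amd1 (chromosome 10, 40287458 to 40302188, minus strand, 8 exons) had 34.8 FPKM at d12 (33.0 to 36.7), then 61.3 at d16 (59.0 to 63.8), 55.7 at d24 (53.9 to 57.4) and 44.6 in the adult (42.2 to 47.1), with its highest value at d16. Amd2, a copy of Amd1 with 1 exon on the same chromosome that is 99.6% identical over its length, was listed at 9.95 FPKM at d12, then 0.00847 at d16, 0.0124 at d24 and 0.492 in the adult. At d12, Amd2 therefore held 22.2% of the FPKM of both genes, against at most 1.09% at the other stages. Since 90.1% of the 50-base stretches of Amd1 occur elsewhere, reads of both genes can change places. Summed, Amd1 and Amd2 had 44.8, 61.4, 55.7 and 45.1 FPKM at d12, d16, d24 and in adult testis. The d16 over d12 ratio of Amd1 was 1.76 (1.65 to 1.88) and that of the sum was 1.37, a comparison added after the Amd2 value was seen. The Odc1 to Amd1 ratio was 1.94 at d12, then 1.68 at d16, 4.397 at d24 and 6.74 in the adult.

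Srm was the lowest or next to lowest of the 9 genes at every stage. Srm (chromosome 4, 148591513 to 148594619, plus strand, 7 exons) had 1.98 FPKM at d12 (33 fragments, 1.37 to 2.79), then 2.17 at d16 (36 fragments, 1.52 to 3.00), next 1.92 at d24 (56 fragments, 1.45 to 2.49) and 0.844 in the adult (10 fragments, 0.405 to 1.55). The first 3 values overlap in their intervals. Adult Srm stood at 0.440 of its d24 level (0.2002 to 0.871), a ratio that rests on 10 adult fragments. Of its 50-base stretches, 4.69% occur elsewhere.

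Sms and Sat1 are the X-linked members, and both were lower after d12. Sms (X chromosome, 157443851 to 157492287, minus strand, 11 exons) had 14.6 FPKM at d12 (13.5 to 15.8), then 10.4 at d16 (9.48 to 11.4), 4.73 at d24 (4.26 to 5.24) and 3.22 in the adult (2.62 to 3.89). Its successive values are lower with no overlap of the intervals, and adult Sms stood at 0.220 of its d12 level (0.176 to 0.270). Sat1 (X chromosome, 155213126 to 155216449, minus strand) had 29.6 FPKM at d12 (26.9 to 32.4), then 17.1 at d16 (15.1 to 19.3), 9.71 at d24 (8.57 to 10.97) and 9.71 in the adult (7.96 to 11.8). Sat1 was lower at d16 than at d12 and lower still at d24, and its d24 and adult values differ by less than counting error. Of the 50-base stretches, 41.7% in Sms and 37.1% in Sat1 occur elsewhere. The Srm to Sms ratio was 0.136 at d12 (0.0925 to 0.192), then 0.209 at d16 (0.144 to 0.293), 0.406 at d24 (0.301 to 0.538) and 0.262 in the adult (0.123 to 0.504), and the Sat1 to Odc1 ratio was 0.438, 0.166, 0.0397 and 0.0323.

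To place these changes among all genes, the log2 change of FPKM + 0.1 was computed for the 13901 genes averaging 1 FPKM or more, and a gene counts as changed when it is at least 2-fold higher or lower. From d12 to d16, 0 of the 9 genes were past 2-fold in either direction, beside 12.6% of all genes higher and 3.67% lower. From d16 to d24, 2 of 9 were higher (Odc1 and Oaz3, beside 27.5% of all genes) and 1 of 9 was lower (Sms, beside 8.45%). From d24 to adult testis, 1 of 9 was higher (Oaz3, beside 11.4%) and 1 of 9 was lower (Srm, beside 2.2%). From d12 to adult testis, 2 of 9 were higher (Odc1 and Oaz3, beside 35.7%) and 3 of 9 were lower (Srm, Sms and Sat1, beside 23.1%). With 9 genes in all, nothing was read from the difference between these shares and the background. The median log2 change of the 9 genes was 0.12, -0.14 and -0.16 over the 3 successive steps, and that of all genes was 0.00, 0.13 and -0.02.

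Single genes stood at different places in this distribution. The Oaz3 change was above 98.9% of all genes from d16 to d24 and above 99.5% from d24 to adult testis. Odc1 lay above 80.3%, 76.3% and 71.3% of all genes over the 3 steps, and Amd1 above 84.7%, 39.95% and 23.4%. The Srm change from d24 to adult testis was above only 1.53% of all genes.

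The X-linked pair was also read against the 613 X-linked genes averaging 1 FPKM or more. Of these, 7.01% were at least 2-fold lower from d12 to d16, 30.2% from d16 to d24 and 4.57% from d24 to adult testis, and 2.61%, 22.3% and 16.3% were at least 2-fold higher. As deposited, Sms was the only one of the pair past 2-fold in a single step, lower from d16 to d24. That call was lost with a pseudocount of 1 FPKM (ratio 0.503), and with the same FPKM sum Sms was also past 2-fold lower from d24 to adult testis (0.488). From d12 to adult testis both were lower, beside 55.8% of X-linked genes lower and 23.8% higher. The Sms change lay above 43.2%, 22.3% and 14.8% of X-linked genes over the 3 steps, and that of Sat1 above 14.7%, 42.9% and 52.4%. From d16 to d24 the median log2 change of X-linked genes was -0.69, beside -1.12 for Sms and -0.81 for Sat1. Both genes therefore lay within the range of other X-linked genes at each step.

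**Figure D3:**
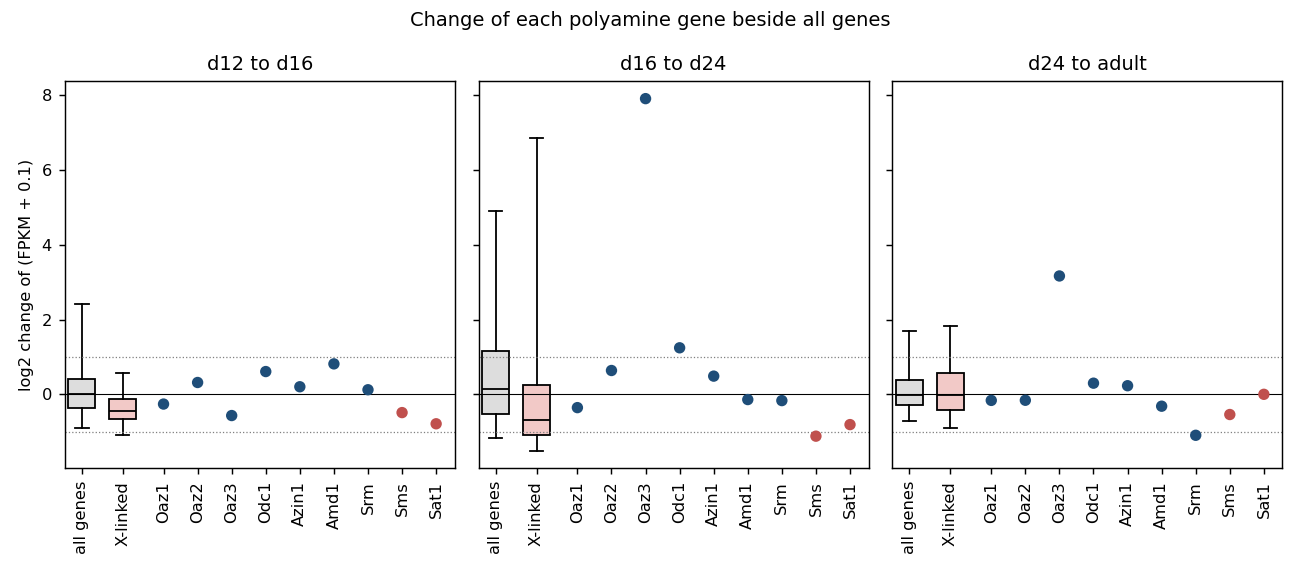
Log2 change of FPKM + 0.1 of each of the 9 genes over 3 steps (dots; Sms and Sat1, the X-linked genes, in red), beside boxes for the 13901 genes averaging 1 FPKM or more and the 613 X-linked ones among them (box, quartiles; whiskers, 5th to 95th percentile). Dotted lines mark 2-fold; Oaz3 lies outside the whiskers from d16 to d24 (7.91) and from d24 to adult testis (3.17).

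The scaling of the libraries matters for changes of this size. Giving each library the same FPKM sum shifts every log2 change by -0.12 from d12 to d16, -0.62 from d16 to d24 and -0.48 from d24 to adult testis, and scaling by the upper quartile shifts them by -0.14, -0.42 and -0.11. From d16 to d24, Odc1 then was 1.54 times higher with the same sum and 1.77 times with the upper quartile, so that Oaz3 was the only one of the 9 genes past 2-fold higher and Sms and Sat1 were past 2-fold lower. All genes then split into 19.4% higher and 30.2% lower with the same sum, and into 21.4% and 22.3% with the upper quartile. From d24 to adult testis, Sms joined Srm past 2-fold lower with the same sum, beside 10.0% of all genes. From d12 to adult testis, Oaz1 was past 2-fold lower under both other scalings, and Odc1 was no longer past 2-fold higher with the same sum. This gives 1 higher and 4 lower of the 9 with the same sum, beside 23.2% and 49.9% of all genes. With the upper quartile it gives 2 higher and 4 lower, beside 27.6% and 38.2%. Azin1 was 1.402 times higher at d24 than at d16 as deposited (1.34 to 1.46) and 0.913 times with the same sum, so its direction is not settled, and the same holds for Odc1 and Azin1 from d24 to adult testis (0.882 and 0.841 with the same sum). From d12 to adult testis, Oaz2, Azin1 and Amd1 also lay on either side of 1 depending on the scaling, whereas Oaz3 and Odc1 were higher, and Oaz1, Srm, Sms and Sat1 lower, under all 3 scalings.

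**Figure D4:**
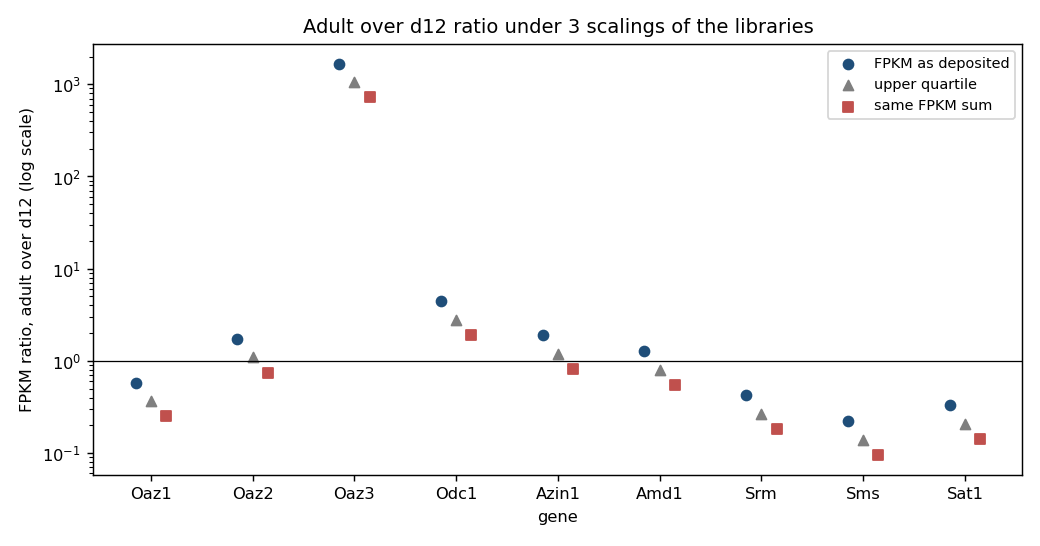
FPKM ratio of adult testis over d12 (log scale) for the 9 genes, with the libraries as deposited, scaled by the upper quartile or scaled to the same FPKM sum. Odc1 is 4.45, 2.79 and 1.91 times higher under the 3 scalings, and Oaz3 1677, 1050.01 and 721 times. The Oaz3 ratios rest on 8 fragments at d12, and the counting interval as deposited is 851 to 3888.

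The wider pathway was read from 5 lists with 30 genes in all, 23 of which had a mean of at least 1 FPKM. The counts include the genes under that mean, whereas the shares of all genes leave such genes out. Slc22a3, Slc22a2, Arg1 and Mat1a are among the genes under it, so counts and shares are not on the same filter. From d16 to d24, 3 of the 30 were at least 2-fold higher (Azin2, Satl1 and Slc22a3) and 5 were lower (Oat, Mri1, Adi1, Sat2 and Atp13a4), beside 27.5% and 8.45% of all genes. With the same FPKM sum this split was 3 higher and 13 lower, beside 19.4% and 30.2%. From d24 to adult testis the same 3 genes were again higher and 0 were lower, beside 11.4% and 2.2%. With the same FPKM sum 3 were higher and 5 lower (Ahcy, Mri1, Adi1, Sat2 and Smox), beside 6.63% and 10.0%. From d12 to d16, 1 was higher and 2 were lower, beside 12.6% and 3.67% of all genes. The higher one was Arg1, under 1 FPKM at all stages. The lower ones were Satl1 and Slc22a2, with 0.132 and 0.112 FPKM at d12 and listed at 0 at d16. From d12 to adult testis, 4 were higher and 13 lower, beside 35.7% and 23.1% of all genes, and with the same FPKM sum 3 were higher and 22 lower, beside 23.2% and 49.9%. The median log2 change of the 30 genes from d12 to adult testis was -0.50, genes averaging under 1 FPKM included. It was 0.20 for all genes averaging 1 FPKM or more.

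For the supply of putrescine, the arginases that make ornithine were near the limit of detection, with Arg1 at most 0.542 FPKM and Arg2 at most 0.317, and Agmat, which makes putrescine from agmatine, was listed at 0 in all 4 libraries. Oat, an aminotransferase that links ornithine to glutamate and proline metabolism, had 58.0 FPKM at d12, then 46.5 at d16, 21.4 at d24 and 21.1 in the adult. In this list of 5 genes, Oat and Azin2 alone reached a mean of 1 FPKM.

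The next list holds 9 genes that make and recycle the aminopropyl donor. From d12 to adult testis as deposited, 6 were at least 2-fold lower and 0 were higher, beside 23.1% and 35.7% of all genes. With the same FPKM sum all 9 were past 2-fold lower, beside 49.9% of all genes. Among the 9, Mat1a averages under 1 FPKM, unlike the genes behind that share. It had 0.206 FPKM at d12 (9 fragments) and 0.129 in the adult (4 fragments). Its ratio as deposited was 0.624 (0.141 to 2.24), so its fall is within counting error. Mat2a, which makes S-adenosylmethionine, had 71.5, 65.2, 45.2 and 35.1 FPKM at the 4 successive stages. Ahcy, which removes S-adenosylhomocysteine, had 17.1, 17.8, 13.0 and 7.99. In the methionine salvage steps, Mtap went from 14.0 FPKM at d12 to 5.57 in adult testis and Adi1 from 6.39 to 1.21. Enoph1 in the same route had 15.3 FPKM at d12 and 15.3 in the adult as deposited, and an adult over d12 ratio of 0.430 with the same FPKM sum.

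Among genes of polyamine oxidation and acetylation, Satl1, an X-linked relative of Sat1, was listed at 0.132 FPKM at d12, then 0 at d16, 11.5 at d24 and 46.5 in the adult. From d16 to d24 Satl1 was thus higher and Sat1 lower, both on the X chromosome. Sat2 had 13.6, 22.4, 8.26 and 4.45 FPKM, Smox, the spermine oxidase, had 8.33, 7.09, 5.34 and 3.33, and Paox, which oxidises acetylated polyamines, had 2.62, 2.49, 2.23 and 2.52.

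Spermidine is also used to make hypusine, an amino acid found in the translation factor eIF5A. Eif5a had 127 FPKM at d12, then 189 at d16, 285 at d24 and 316 in the adult, and its adult over d12 ratio of 2.49 became 1.07 with the same FPKM sum. The hypusination enzyme Dhps had 8.63, 7.69, 5.98 and 4.13 FPKM and Dohh had 7.47, 7.65, 9.14 and 8.15. Of the 8 transport genes, Slc3a2 (21.1 FPKM at d12 and 21.4 in adult testis) and Atp13a3 (17.7 and 8.995) had the highest levels. Slc22a3, a transporter of organic cations, was listed at 0 at d12 and d16, 0.351 FPKM at d24 and 2.63 in the adult. Near copies of these 30 genes were not searched, apart from Azin2, of which no 50-base stretch occurs elsewhere.

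**Figure D5:**
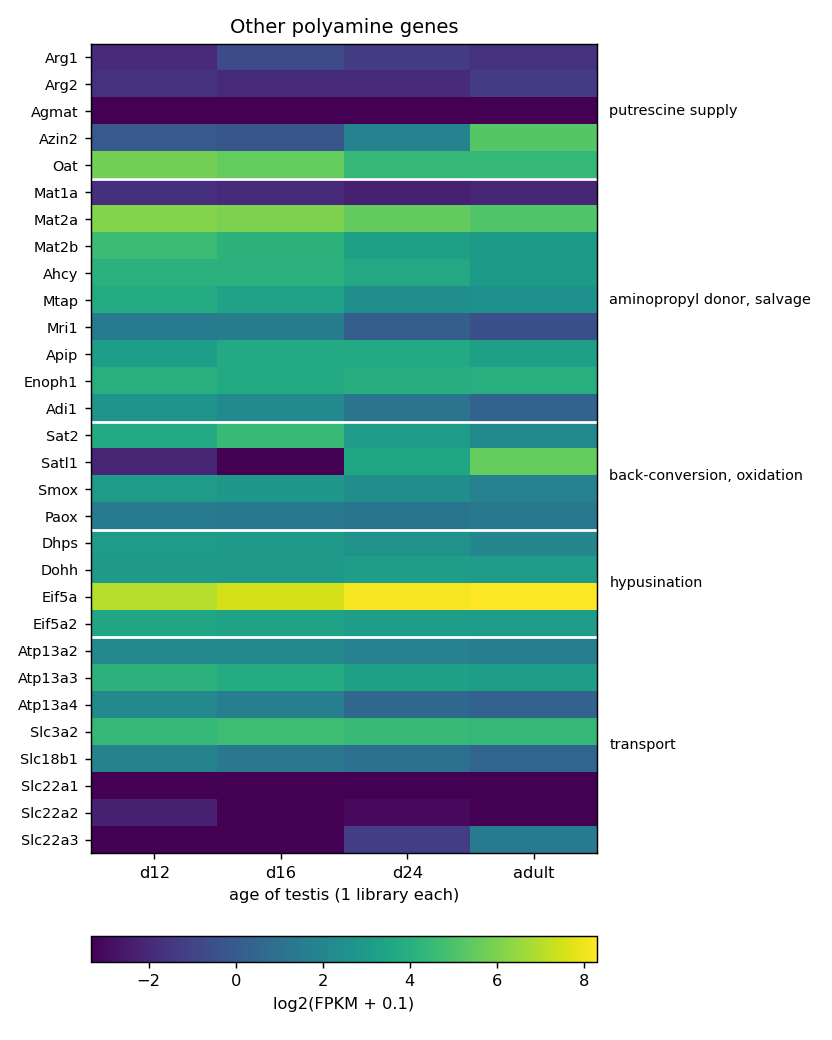
Log2 of FPKM + 0.1 for the 30 other polyamine genes (rows, grouped by list) at d12, d16, d24 and in adult testis, 1 library each. Azin2 and Satl1 are bright only at the later stages (37.6 and 46.5 FPKM in adult testis), while Oat and most of the aminopropyl donor genes darken with age.

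Genes with the most similar course were found by the root mean square difference of log2(FPKM + 0.1), centred on each gene's mean over the 4 libraries, among 13892 other genes averaging 1 FPKM or more. Within 0.2 lay 4 genes for Oaz3, 1838 for Oaz1, 1012 for Oaz2, 947 for Azin1, 768 for Sat1, 681 for Sms, 355 for Amd1, 336 for Odc1 and 149 for Srm. The difference is not scaled by the size of a gene's change, so a gene with large changes can have few neighbours for that reason alone. The counts therefore do not rank how rare the profiles are. For Oaz3 the difference also rests on 8 fragments at d12 and 5 at d16. Nearest to Oaz3 were Spata3 (difference 0.083, with 44.2 FPKM at d24 and 340 in adult testis), 4930571K23Rik (0.15, with 71.8 and 770.3) and Gsg1 (0.16, with 179 and 1299). Nearest to Odc1 were Crcp, Mmadhc and Ppp4r4, and nearest to Azin1 were Slco1a4, Ccni and Xpnpep1. Oaz1 was closest to Adam9, Dennd5a and Ppp1r21, Oaz2 to Ecd, Mapkap1 and E2f4, Amd1 to Frmpd1, Ifi204 and Lipt1, and Srm to Mkrn3, Gca and Kctd2. Sms was closest to Spats2l, Rap2c and Greb1l and Sat1 to Mpp1, Fndc5 and Zfp651, of which Rap2c and Mpp1 are X-linked too. With 4 libraries a close match was common for the genes other than Oaz3, as the counts within 0.2 show.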

How the data were processed

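Each of 4 testis stages gave 1 strand-specific, paired-end library of total RNA. The 4 H3K27Ac ChIP-seq samples are not analysed here. The authors mapped read pairs with TopHat2 2.1.0 (on Bowtie 1.1.2) to RefSeq genes of GRCm38/mm10, 1 alignment a pair. They deposited FPKM values made by Cuffdiff (Cufflinks 2.2.1), corrected for multi-reads and sequence bias. The scaling between libraries is not given in the sources used here.

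Ratios were taken from the deposited FPKM values in python 3.11.15 (scipy 1.17.1, pandas 2.3.3, numpy 2.4.6). Log2 changes use a pseudocount of 0.1 FPKM. The value of 1 fragment was recovered from 14603 genes with 1 curated RefSeq transcript. It was 0.0799 FPKM for 1 kb at d12, then 0.0800 at d16, 0.0455 at d24 and 0.112 in the adult, and of the values of up to 20 fragments 91.9% to 92.4% lay within 0.05 of a whole number. For genes with several transcripts whose lengths differ by at most 1.1 times, the mean length was used. Coordinates and slippage sites come from the RefSeq annotation of GRCm38.p6, and near copies were searched in that genome with blastn 2.17.0. The 50-base stretches were matched exactly inside the regions it found. The 9 genes, the 5 pathway lists (from textbook knowledge), the marker lists and the rule for similar genes were chosen with earlier results of these data known. Named genes are the 9, the pathway lists and the 3 most similar genes of each. The fold counts, the similar genes and the recovery of fragments were tested on simulated data. For the fold counts, low genes were given more fragments than they had and the planted change was larger than 2-fold. That simulation therefore does not cover values on few fragments, such as Oaz3 before d24 and Srm in adult testis. Alternatives were 2 other scalings, a pseudocount of 1, folds of 1.5 and 3, other filters on low values and other denominators.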

Additional observations from a re-analysis of the deposited data

How the results depend on the processing

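No paired analysis was possible because each stage has 1 library. A fold of 1.5 gave 3, 5 and 8 of the 9 genes from d12 to d16, d16 to d24 and d12 to adult testis (0, 3 and 5 at 2-fold), and a fold of 3 gave 1 from d16 to d24 and 1 from d24 to adult testis (2 at 2-fold). A pseudocount of 1 FPKM also gave 1 from d24 to adult testis, without Srm, and 2 from d16 to d24, without Sms. For the 30 pathway genes, a fold of 1.5 gave 5 from d12 to d16 and 9 from d24 to adult testis (3 and 3 at 2-fold), a fold of 3 gave 0 from d12 to d16, 3 from d16 to d24 and 8 from d12 to adult testis (3, 8 and 17 at 2-fold), and a pseudocount of 1 gave 0 from d12 to d16 and 4 from d16 to d24. The same FPKM sum gave 16 from d16 to d24 and 8 from d24 to adult testis. The moves with another fold or pseudocount follow from how those settings are built. The counts with the same FPKM sum show that the split of the pathway genes depends on the scaling of the libraries. The share of Oaz3 in the sum of Oaz1 and Oaz3, without Oaz2, was 1.67%, 1.26%, 83.0% and 98.0% at the 4 successive stages, and as fragments, not per length, 39.8% at d24 and 86.9% in adult testis. Over Odc1 alone the antizyme ratio was 1.23, 0.841, 0.958 and 4.07, and without Oaz3 0.347 at d24 and 0.255 in adult testis. As fragments the Srm to Sms ratio was 0.0505, 0.0776, 0.151 and 0.0976. Of 81 ratios of the 9 genes between neighbouring stages under another scaling or pseudocount, 6 turned direction (Odc1, Azin1 and Sat1 from d24 to adult testis, Azin1 from d16 to d24, Srm from d12 to d16), and these ratios were within 2-fold as deposited. All 6 arose under another scaling, because a pseudocount added to both values cannot turn a ratio. Among the alternatives for single-gene ratios, the Amd1 and Amd2 sum included, 36 left the counting interval. The other 29 counts, shares and ratios between genes stayed inside their counting interval or, for counts, moved by at most 1.5 times. Summing Amd1 and Amd2, chosen after seeing the data, gave 1.37 from d12 to d16. The depth limits Oaz3 before d24 and Srm in adult testis most.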
